A study of Mus musculus with 12 samples.

Results

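The 10 genes described here mark the intestinal stem cell or belong to canonical Wnt signalling: Lgr5, Olfm4, Ascl2, Smoc2, Lrig1, Sox9, Axin2, Rnf43, Znrf3 and Slc12a2. They were taken by symbol from a table of read counts for 54838 genes in mouse ileum. All 10 were found, and all 10 were among the 15938 genes that passed a filter on low counts and were tested. They were chosen by name, though with earlier results of these data known.

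The libraries came from the ileum of C57BL/6J mice that drank either plain water or water with 25 mM ZnSO4 for 7 days. The mice then received 1 injection of PBS or of 200 µg dexamethasone (Dex), a synthetic glucocorticoid, and the ileum was taken 2 h later. This gave 4 groups of 3 mice, written as water + PBS, water + Dex, ZnSO4 + PBS and ZnSO4 + Dex. No mouse carried an engineered allele, all 12 were injected, and each library held RNA from the washed ileum and not from sorted crypt cells, so its counts mix all cell types of the tissue.

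The library totals ran from 10760132 to 11827487 counts. The treatments were visible in the genes that answer to them directly. With ZnSO4, the zinc-binding metallothionein gene Mt1 rose by a log2 fold change (LFC) of 4.60 averaged over both injections, and with Dex, the glucocorticoid receptor target Fkbp5 rose by 3.36 averaged over both kinds of water. The ileal bile acid binding protein gene Fabp6 ran from 3575 to 7789 CPM (reads scaled to a common library total) over all 12 libraries. B cell markers (7 genes) stood far apart within groups, with a summed level between 26.9 and 581 CPM in water + PBS and between 10.8 and 439 CPM in ZnSO4 + PBS, and 0 of the 7 changed by edgeR in either averaged comparison, with 0 and 2 of the 7 for ZnSO4 and Dex at an unadjusted p under 0.05.

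In the small intestine, Wnt signals at the crypt base keep Lgr5-positive stem cells dividing. Wnt binds Frizzled and LRP receptors, β-catenin accumulates, and TCF/LEF factors switch on target genes. R-spondins strengthen the signal by binding LGR receptors and removing the ubiquitin ligases RNF43 and ZNRF3, which otherwise clear Frizzled from the cell surface. Axin2, Rnf43 and Znrf3 are themselves Wnt targets that act as feedback brakes.

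The genes lie on 6 chromosomes in addition to chromosome 11, which holds 4 of them. In GRCm38 coordinates, Axin2 (ENSMUSG00000000142) is at chr11:108920349-108950783, Rnf43 (ENSMUSG00000034177) at chr11:87662722-87735539, Lgr5 (ENSMUSG00000020140) at chr10:115450311-115587780 and Ascl2 (ENSMUSG00000009248) at chr7:142966829-142969264. All 10 are protein-coding genes, and the counts cover their exons. Exons of another annotated gene covered 5.17% of the exonic bases of Olfm4 on the same strand (Gm6999), 3.8% of those of Axin2 on the opposite strand (Gm11670) and 2.58% of those of Lrig1 on the opposite strand (Slc25a26). The strand setting of the counting is not given in the sources used here, so for Axin2 and Lrig1 a small part of the reads could belong to the partner.

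Stretches of DNA before a RefSeq start of Axin2 and of Rnf43 are shown because these feedback genes of the same pathway moved in opposite directions with Dex. RefSeq starts (GRCm38.p6) were given for 5 of the 10 genes, Olfm4, Ascl2, Axin2, Rnf43 and Lrig1, as 6 windows of 250 bases. Both strands of each window were searched for 4 motifs. The first were the TCF/LEF core, which is CTTTG followed by 2 bases that are each A or T, and CTTTG alone, which the core contains. The others were the full glucocorticoid response element (GNACA and TGTNC with 3 bases between them) and the 6 letters AGAACA, the consensus of its left arm, which the full element can overlap. AGAACA stood in 2 of the 6 windows, against 16.1% of all 32851 windows. The other 3 motifs stood in 0 of the 6, against 14.8% of all windows for the TCF/LEF core, 48.6% for CTTTG and 0.387% for the full element. A lack of these letters in 250 bases says nothing of sites elsewhere. The Axin2 window is chr11:108920099-108920348 on the plus strand, with AGAACA in capitals from base 152 to base 147 before the start. The Rnf43 stretch is 26 bases around the match at chr11:87662847-87662852, from base 240 to base 235 before a RefSeq start at base 87663087 of the plus strand, where AGAACA lies on the opposite strand and so reads TGTTCT. GENCODE starts Rnf43 earlier, so this match lies 125 bases inside the gene, in an exon of 1 of its 9 annotated transcripts and in no annotated coding or UTR part, while the Axin2 match lies outside the gene.
Axin2: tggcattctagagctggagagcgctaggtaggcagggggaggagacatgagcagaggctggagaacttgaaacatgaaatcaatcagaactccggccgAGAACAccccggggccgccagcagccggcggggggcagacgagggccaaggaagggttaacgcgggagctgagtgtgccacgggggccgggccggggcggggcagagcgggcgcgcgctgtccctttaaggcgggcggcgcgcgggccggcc
Rnf43: gggtagtgacTGTTCTatttgctgct

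Levels of different genes can be compared only per length, here as CPM per kilobase of exon averaged over all 12 libraries. On that scale Olfm4, a secreted glycoprotein of crypt base cells, stood highest at 248, followed by the ion transporter gene Slc12a2 at 43.6. Lrig1 (15.8), Axin2 (14.5) and Smoc2 (10.8) came next, then Rnf43 (6.42) and Sox9 (5.34). Ascl2 (2.56), Lgr5 (1.97) and Znrf3 (1.37) were lowest. Neighbours in this order overlapped between Lrig1 and Axin2 in 1 of the 4 groups, between Axin2 and Smoc2 in 2, between Rnf43 and Sox9 in 3, between Ascl2 and Lgr5 in 2, and between Lgr5 and Znrf3 in 2. The other 4 pairs of neighbours did not overlap in any group. Ascl2 rested on the fewest reads, 29 to 68 per library.

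**Figure D1:**
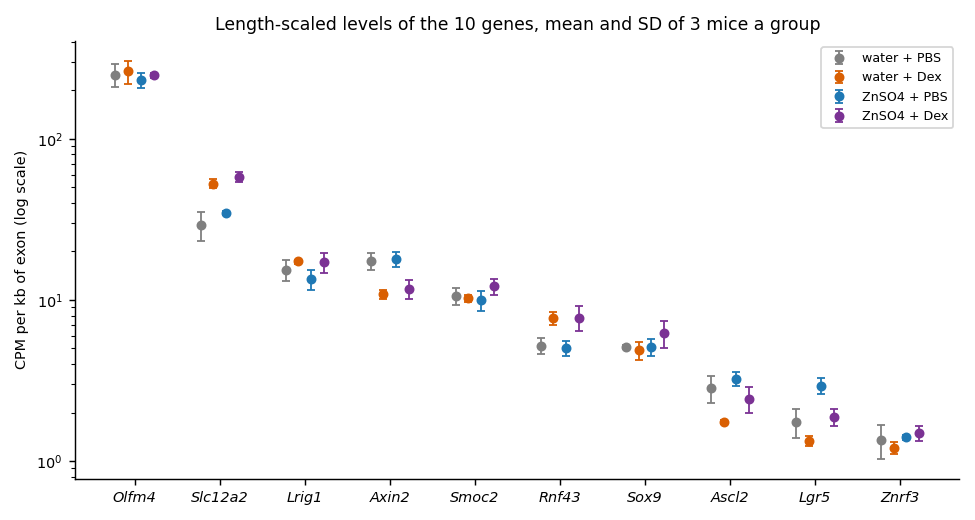
Length-scaled level of each gene in CPM per kilobase of exon on a log axis, with a point for the mean and a bar for the SD of the 3 mice in each of the 4 groups. Olfm4 lies far above the rest at 248 on average, while Ascl2, Lgr5 and Znrf3 lie at 2.56 and below.

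Each gene was tested in 1 model of the 4 groups with edgeR's quasi-likelihood test, with p-values adjusted over all 15938 genes by the Benjamini-Hochberg method. A gene is called up- or downregulated at an adjusted p under 0.05. Dex against PBS in mice on plain water changed 4 of the 10, 2 up and 2 down, against 9.93% of all genes tested. In mice on ZnSO4, Dex also changed 4 of the 10, 2 up and 2 down, against 13.7% of all genes. These comparisons share no library. Averaged over both kinds of water, which reuses the same 12 libraries, Dex upregulated Slc12a2 and Rnf43 and downregulated Axin2, Lgr5 and Ascl2. That is 5 of 10 genes, against 21.5% of all genes. Libraries of the groups compared did not overlap for 4 of the 10 genes on water (29.7% of all genes), 6 on ZnSO4 (29.1%) and 3 over all 6 Dex and 6 PBS libraries (9.74%).

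ZnSO4 against water in PBS-injected mice changed 1 of the 10, Lgr5, against 4.66% of all genes. In Dex-injected mice it changed 0 of the 10 by edgeR, against 4.37% of all genes, with 3 (Lgr5, Ascl2 and Sox9) at an unadjusted p under 0.05, and DESeq2 called 0 as well. Averaged over both injections, ZnSO4 changed only Lgr5 among the 10, against 12.8% of all genes. For ZnSO4, the groups did not overlap for 1 of the 10 genes with PBS (25.3% of all genes), 4 with Dex (25.9%) and 0 over both (4.98%). With 3 mice against 3, the smallest p an exact permutation test could reach is 0.1, so no permutation test was run on single genes. The main calls come from the shared model, and fits of only the compared groups were an alternative. The mice of a group are called biological replicates in the labels.

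Whether the Dex effect differed between mice on ZnSO4 and mice on water was tested as an interaction. By edgeR 0 of the 10 genes and 0 of all genes (0% of those tested) passed, with 0 of the 10 and 4.98% of all genes at an unadjusted p under 0.05. DESeq2 called 0 of the 10, and 4 genes higher and 2 lower among all genes. Smoc2 had the lowest p of the 10 (unadjusted p = 0.0787, adjusted p = 0.952), with a difference between the Dex effects of 0.33 in LFC and a 95% interval from -0.04 to 0.70.

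**Figure D2:**
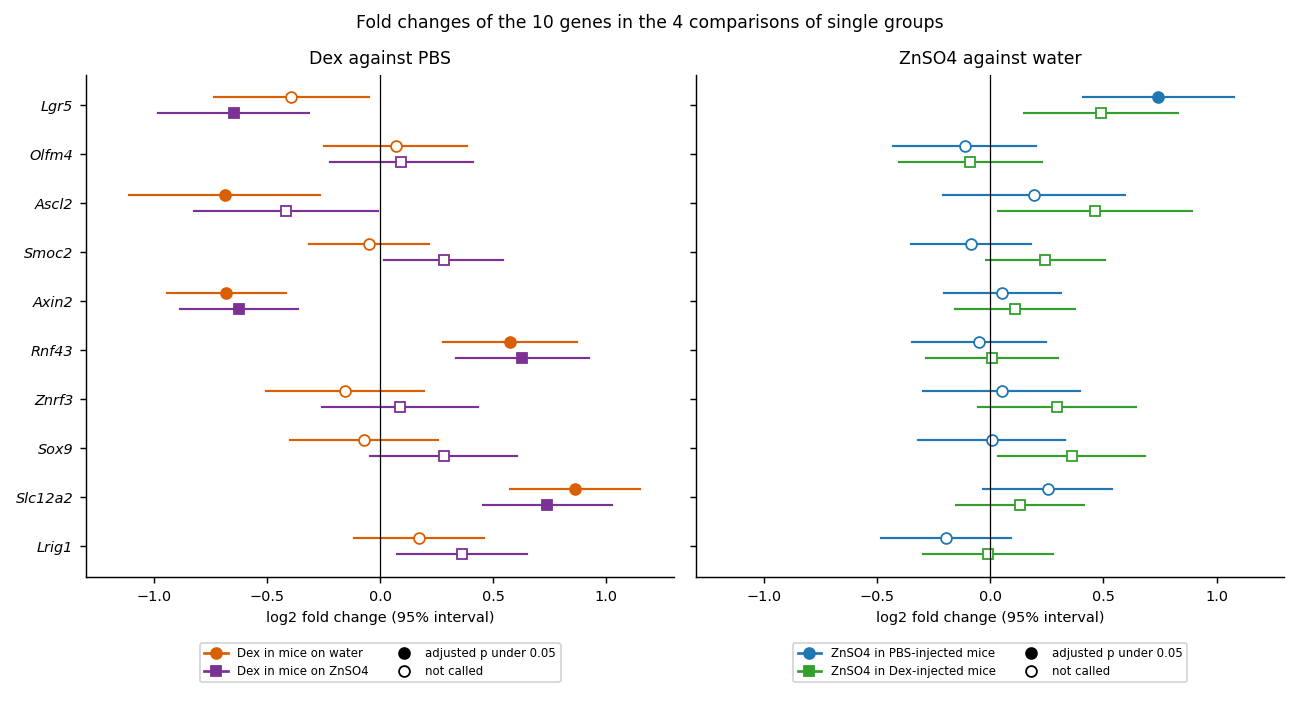
LFC of the 10 genes (horizontal axis, with 95% intervals as lines) for Dex against PBS on the left and ZnSO4 against water on the right, each in both settings. Filled points have an adjusted p under 0.05: Axin2, Rnf43 and Slc12a2 are filled for Dex in both kinds of water, while Lgr5 in PBS-injected mice is the only filled point on the ZnSO4 side.

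Lgr5 is the R-spondin receptor that defines the cycling stem cell at the crypt base. Its level was 18.7, 14.02 and 21.1 CPM in the 3 water + PBS mice and 30.2, 26.6 and 33.5 CPM in the ZnSO4 + PBS mice. After Dex it was 13.5, 12.8 and 14.7 CPM on water and 16.6, 20.6 and 20.5 CPM on ZnSO4. ZnSO4 + PBS was thus the highest group and overlapped with no other, water + Dex was the lowest but reached into water + PBS, and ZnSO4 + Dex overlapped with water + PBS.

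In PBS-injected mice Lgr5 was upregulated by ZnSO4 (LFC 0.74, SE 0.15, adjusted p = 0.0204). In Dex-injected mice the same contrast gave an LFC of 0.49 (SE 0.16), did not pass (adjusted p = 0.107) and had no overlap between the groups. Dex downregulated Lgr5 in mice on ZnSO4 (LFC -0.65, SE 0.15, adjusted p = 0.015), and in mice on water the LFC was -0.39 (SE 0.16, adjusted p = 0.155). Averaged over the other treatment, ZnSO4 gave an LFC of 0.62 (adjusted p = 0.00379) and Dex of -0.52 (adjusted p = 0.00499).

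The averaged calls of Lgr5 held whichever library was left out, with adjusted p values up to 0.0124 for ZnSO4 and up to 0.016 for Dex. The ZnSO4 call in PBS-injected mice was lost without water + PBS replicate 1 (adjusted p = 0.0609), ZnSO4 + PBS replicate 1 (0.066) or ZnSO4 + PBS replicate 3 (0.0838), with only the compared groups in the fit (0.0704), and with smooth muscle (0.0522) or proliferation markers (0.243) as a covariate. The LFC in these fits ran from 0.62 to 0.78. The Dex call in mice on ZnSO4 was lost without ZnSO4 + PBS replicate 3 (0.0582) or ZnSO4 + Dex replicate 1 (0.0661) and with proliferation markers as a covariate (0.0715), where the LFC was -0.56, -0.55 and -0.59, and a Dex call in mice on water appeared without water + PBS replicate 2 (0.0379).

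Markers of some other cell types moved along with Lgr5 under ZnSO4. Calls of single markers here are averaged over injections unless stated, where 12.8% of all genes tested were called. In whole ileum, fewer cells of a type and less RNA per cell cannot be told apart. The summed level of 7 goblet cell markers was 12652 to 12806 CPM in water + PBS and 14053 to 16943 CPM in ZnSO4 + PBS, and averaged over injections 3 of the 7, Muc2, Tff3 and Zg16, rose with ZnSO4. The sum of 7 T cell markers was 85.4 to 160 CPM in water + PBS and 40.9 to 93.7 CPM in ZnSO4 + PBS, and 4 of the 7 fell. The sum of 12 proliferation markers was 869 to 1046 CPM in water + PBS and 718 to 858 CPM in ZnSO4 + PBS, without overlap. In Dex-injected mice the ranges overlapped, at 920 to 959 CPM on water and 852 to 1038 CPM on ZnSO4. Averaged over injections, 2 of the 12, the replication helicase genes Mcm2 and Mcm5, fell. Enteroendocrine marker sums (7 genes) were 187 to 238 CPM over the 6 water libraries and 246 to 345 CPM over the 6 ZnSO4 libraries, without overlap, and 2 of the 6 tested, the hormone genes Gcg and Pyy, rose. The sum of 6 macrophage markers was 207 to 271 CPM in water + PBS and 184 to 202 CPM in ZnSO4 + PBS, also without overlap. After Dex the macrophage ranges overlapped, at 225 to 264 CPM on water and 216 to 246 CPM on ZnSO4. In PBS-injected mice 0 of the 6 were called by edgeR, with 3 at an unadjusted p under 0.05. Smooth muscle marker sums (7 genes) were 1326 to 1764 CPM over the water libraries and 1560 to 2799 CPM over the ZnSO4 libraries, with 1 of the 7 (Tagln) up. Of 7 Paneth cell markers 2 fell and of 7 fibroblast markers 1 rose, with sums that overlapped. None of these markers was at 0 in every library of a group. Their part in the Lgr5 result was not tested beyond the covariate fits.

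Ascl2 encodes a transcription factor that works with Wnt to hold stem cell fate. It was at 4.79, 3.62 and 5.34 CPM in water + PBS and at 2.84, 2.94 and 2.75 CPM in water + Dex. On ZnSO4 it was at 5.55, 4.67 and 5.54 CPM with PBS and at 4.65, 3.21 and 3.94 CPM with Dex. Dex libraries were below their PBS controls in both kinds of water without overlap, though the gap on ZnSO4 was narrow. The PBS groups overlapped each other, while ZnSO4 + Dex lay above water + Dex without overlap, a contrast that did not pass.

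Dex downregulated Ascl2 in mice on water (LFC -0.69, SE 0.19, adjusted p = 0.0448) and on average (LFC -0.55, SE 0.13, adjusted p = 0.0115). In mice on ZnSO4 the LFC of -0.42 did not pass (adjusted p = 0.178). The call in mice on water was the least firm of those made: it was lost with DESeq2 (adjusted p = 0.102), with every gene of at least 1 count tested (0.0933), with only the compared groups in the fit (0.0798), with smooth muscle markers as a covariate (0.0512) and in 9 of the 12 fits that left out 1 library, with adjusted p from 0.0531 without ZnSO4 + PBS replicate 2 to 0.153 without water + PBS replicate 3. Besides these, the libraries whose removal lost it were water + PBS replicate 1, all 3 of water + Dex, ZnSO4 + PBS replicates 1 and 3, and ZnSO4 + Dex replicate 3. The averaged call held in all 12 such fits, with adjusted p up to 0.0328.

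Olfm4 is the most abundant of the stem cell markers here. It was at 786, 604 and 834 CPM in water + PBS and at 703, 925 and 706 CPM in water + Dex. With ZnSO4 it was at 766, 656 and 637 CPM after PBS and at 706, 729 and 761 CPM after Dex. All 4 groups overlapped. The averaged LFC was 0.08 for Dex (95% interval -0.14 to 0.30) and -0.10 for ZnSO4 (-0.32 to 0.12), so the intervals leave out changes as large as those of Lgr5.

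Smoc2 encodes a secreted matricellular protein of crypt base cells. It was at 83.1, 65.1 and 73.0 CPM in water + PBS and at 69.1, 69.5 and 75.3 CPM in water + Dex. In the ZnSO4 groups it was at 62.9, 64.7 and 80.9 CPM with PBS and at 82.7, 94.7 and 75.8 CPM with Dex. ZnSO4 + Dex was the highest group on average and lay just above water + Dex without overlap, with an LFC of 0.24 that did not pass (adjusted p = 0.304). The averaged LFC was 0.12 for Dex (adjusted p = 0.377) and 0.08 for ZnSO4 (adjusted p = 0.581).

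Lrig1 encodes a membrane protein that restrains ErbB receptors and marks a broader set of crypt base cells. It was at 101, 78.04 and 78.7 CPM in water + PBS and at 94.3, 96.3 and 99.7 CPM in water + Dex. With ZnSO4 the level was 68.4, 69.2 and 87.1 CPM after PBS and 88.6, 112 and 88.0 CPM after Dex. Replicate 1 of water + PBS lay above the range of water + Dex, while on ZnSO4 the Dex and PBS libraries did not overlap. The averaged Dex LFC of 0.27 (SE 0.09) missed the threshold (adjusted p = 0.0619), and it passed without water + PBS replicate 1 (0.0172), without ZnSO4 + PBS replicate 3 (0.0247) and with DESeq2 (0.0423).

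Sox9 encodes a transcription factor of crypt progenitors and Paneth cells. It was at 21.9, 20.5 and 21.0 CPM in water + PBS and at 23.2, 18.8 and 18.3 CPM in water + Dex. Mice on ZnSO4 had 18.6, 23.7 and 21.3 CPM with PBS and 25.8, 30.7 and 20.8 CPM with Dex. All groups overlapped, with the 2 highest libraries both in ZnSO4 + Dex, where the LFC against water + Dex was 0.36 (SE 0.15, adjusted p = 0.215).

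**Figure D3:**
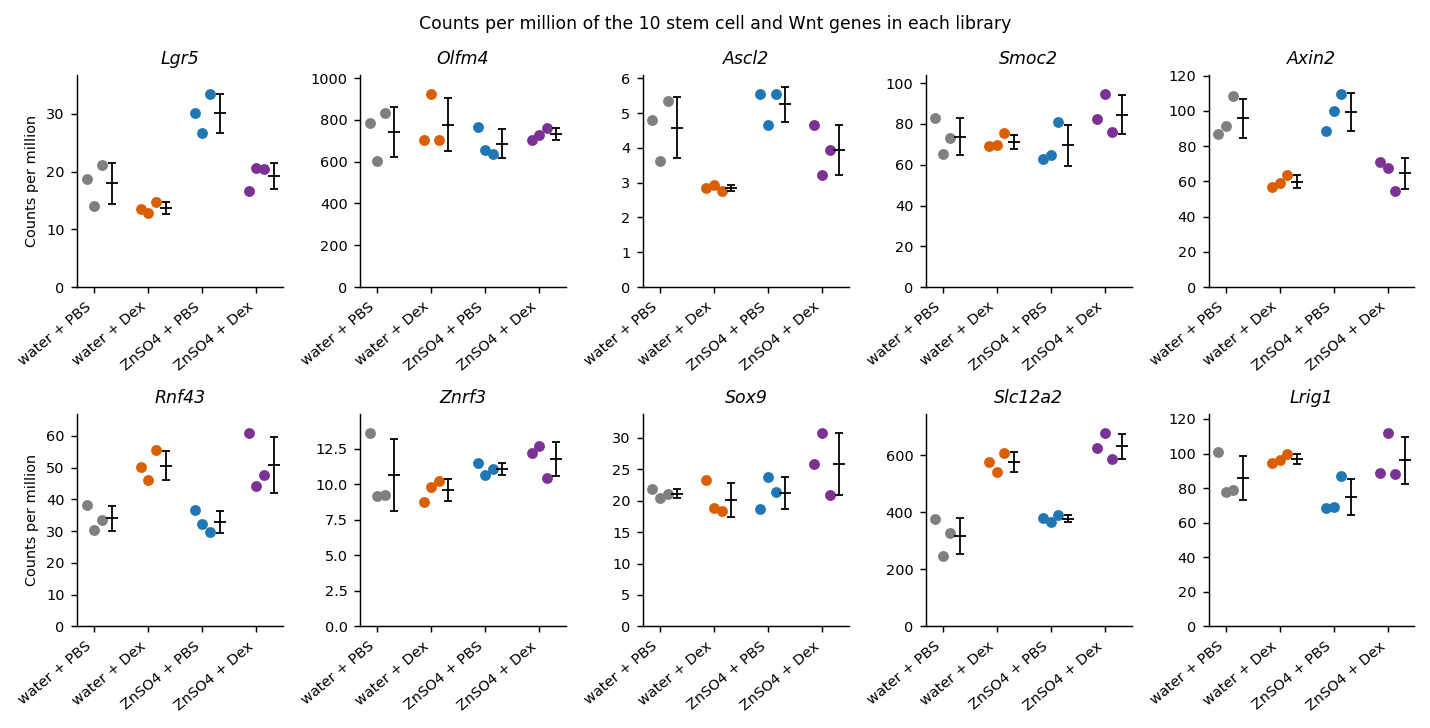
CPM of each of the 10 genes in every library (points) with the mean and SD of each group of 3 mice (black bars), with each vertical axis starting at 0. In Axin2 all 6 Dex libraries lie below all 6 PBS libraries, and in Rnf43 and Slc12a2 all 6 lie above.

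Among the feedback genes, Axin2 encodes a scaffold of the complex that destroys β-catenin and is widely used as a readout of Wnt signalling. It was at 87.0, 91.6 and 108 CPM in water + PBS and at 56.5, 59.0 and 63.7 CPM in water + Dex. On ZnSO4 it was at 88.3, 100 and 110 CPM with PBS and at 71.3, 67.6 and 54.5 CPM with Dex. The highest of the 6 Dex libraries was thus below the lowest of the 6 PBS libraries, while the kind of water made no visible split.

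Dex downregulated Axin2 in mice on water (LFC -0.68, SE 0.12, adjusted p = 0.00364) and, in separate mice, on ZnSO4 (LFC -0.62, SE 0.12, adjusted p = 0.00455). The average was -0.65 (95% interval -0.84 to -0.47, adjusted p = 0.000179). For ZnSO4 the averaged LFC was 0.08 (95% interval -0.10 to 0.27, adjusted p = 0.565).

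Rnf43 encodes a ubiquitin ligase that removes Frizzled receptors. It was at 38.2, 30.5 and 33.4 CPM in water + PBS and at 50.4, 46.1 and 55.5 CPM in water + Dex. In the ZnSO4 groups it was at 36.7, 32.3 and 29.7 CPM with PBS and at 60.9, 44.1 and 47.8 CPM with Dex. Every Dex library was above every PBS library, the reverse of Axin2.

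Dex upregulated Rnf43 in mice on water (LFC 0.57, SE 0.13, adjusted p = 0.019) and on ZnSO4 (LFC 0.63, SE 0.13, adjusted p = 0.00897), with an average of 0.60 (adjusted p = 0.00076). The call in mice on water was lost without water + PBS replicate 2 (0.0736) or 3 (0.0627) and without water + Dex replicate 1 (0.0528) or 3 (0.0885), where the LFC ran from 0.50 to 0.58, and without the 3 libraries that stood apart in markers (0.0634), water + PBS replicate 2 and replicate 2 of both ZnSO4 groups. The averaged call held in every such fit, with adjusted p up to 0.00308.

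Znrf3, the paralogue of Rnf43 with the same task, was not called in any comparison. It was at 13.6, 9.17 and 9.27 CPM in water + PBS and at 8.72, 9.78 and 10.3 CPM in water + Dex. Mice on ZnSO4 had 11.5, 10.6 and 11.1 CPM with PBS and 12.2, 12.7 and 10.4 CPM with Dex. The PBS and Dex ranges overlapped in both kinds of water, and the averaged Dex LFC was -0.03 (95% interval -0.28 to 0.21), an interval that lies below that of Rnf43 (0.39 to 0.81). The difference between the paralogues was not itself tested.

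Slc12a2 encodes NKCC1, the basolateral sodium, potassium and chloride cotransporter that supplies chloride for crypt secretion, and is among the transcripts enriched in crypt base cells. It was at 376, 248 and 328 CPM in water + PBS and at 578, 541 and 610 CPM in water + Dex. With ZnSO4 the level was 379, 365 and 391 CPM after PBS and 628, 678 and 589 CPM after Dex. All 6 Dex libraries were above all 6 PBS libraries.

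Slc12a2 showed the largest change of the 10 genes. Dex upregulated it in mice on water (LFC 0.86, SE 0.13, adjusted p = 0.0014) and on ZnSO4 (LFC 0.74, SE 0.13, adjusted p = 0.0027), with an average of 0.80 (adjusted p = 7.42e-05). It was the only member past the study's additional cut-off, an LFC above 0.8 in size, in mice on water and on average, where 4.42% and 6.31% of all genes were past it. For ZnSO4 in PBS-injected mice the LFC was 0.25 (SE 0.13, adjusted p = 0.314).

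Some markers of other cell types were also called with Dex on average, where 21.5% of all genes tested were called. The marker sums given here overlapped between the 6 PBS and the 6 Dex libraries, both kinds of water pooled. On water alone, goblet sums were 12652 to 12806 CPM with PBS and 14274 to 15117 CPM with Dex, without overlap. Enterocyte sums there were 22613 to 26306 CPM and 28702 to 33080 CPM, also without overlap. On ZnSO4 both overlapped. Enteroendocrine sums (246 to 258 and 269 to 345 CPM) and macrophage sums (184 to 202 and 216 to 246 CPM) overlapped on water but not on ZnSO4. Goblet cell marker sums were 12652 to 16943 CPM over the 6 PBS libraries and 14274 to 19275 CPM over the 6 Dex libraries, with 1 of the 7 (Tff3) called on average. Enterocyte marker sums (9 genes) were 22520 to 30204 CPM with PBS and 14350 to 33080 CPM with Dex, the lowest in ZnSO4 + Dex replicate 2, with 1 of the 9 called. T cell marker sums were 40.9 to 160 CPM with PBS and 44.4 to 107 CPM with Dex, with 2 of the 7 called down. Enteroendocrine marker sums were 187 to 258 CPM with PBS and 216 to 345 CPM with Dex, with 1 of the 6 tested (Chga) up. Of 6 macrophage markers 1 rose and 1 fell, and of 7 fibroblast markers 1 fell. Proliferation marker sums overlapped, 718 to 1046 CPM against 852 to 1038 CPM, with 2 of the 12 called up. The averaged Dex calls of Axin2, Rnf43, Slc12a2, Lgr5 and Ascl2 were all kept with B cell, smooth muscle, proliferation or enterocyte markers as a covariate.

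The 10 genes did not vary as a block. Their LFC for Dex, averaged, ran from -0.65 to 0.80 with a median of 0.09, against a median of 0.00 over all genes, and for ZnSO4 from -0.10 to 0.62 with a median of 0.13, against -0.01. Within groups, the 45 pairs of genes had a median correlation of 0.25 in the deviation of log2 CPM from the group mean over 12 libraries, and 33 were positive. The tightest pair was Smoc2 and Lrig1 (r = 0.93), which share tissue composition and library as well. Axin2 and Rnf43 had an r of -0.84 across all 12 libraries but -0.03 within groups. The spread between mice of a group was ordinary for these data, an SD of log2 CPM of 0.159 to 0.203 against a median of 0.190 over all genes.

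Further genes were taken from 10 lists ordered by role, called pathway lists here, 140 genes of which 113 passed the filter. The lists cover Wnt signalling, other stem cell markers, Notch signalling and BMP signalling. Dex, averaged, upregulated 12 and downregulated 31 of the 113, or 38.1%, against 21.5% of all genes tested. This share pools all 10 lists and is not that of the Wnt genes alone. ZnSO4, averaged, upregulated 10 and downregulated 8, or 15.9%, near the 12.8% of all genes. The averaged counts of each list below are to be read against the same shares of all genes, 21.5% for Dex and 12.8% for ZnSO4. For Dex the median LFC over the 113 genes was -0.15, against 0.00 over all genes.

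Of the 8 Wnt ligands tested, 3 fell and 0 rose with Dex on average: Wnt4 (LFC -0.79, adjusted p = 0.00181), Wnt5a (-0.84, 0.0019) and Wnt9a (-0.71, 0.0356). Wnt4 and Wnt5a moved the other way with ZnSO4 (LFC 0.53 and 0.52, adjusted p = 0.0299 and 0.0437), and Wnt11 fell (-1.02, 0.0307). Levels of Wnt11 and Wnt9a were low, with group means of 0.597 to 1.88 CPM and 1.28 to 2.77 CPM. Of the R-spondins, which feed the LGR receptors, Rspo1 and Rspo3 were tested and had averaged Dex LFC of 0.42 (adjusted p = 0.586) and -0.32 (0.267).

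Of 15 receptors tested, 2 rose and 5 fell with Dex. The Frizzled gene Fzd4 rose from a mean of 15.1 to 28.7 CPM (LFC 0.92, adjusted p = 0.000227). Fzd7, a receptor of crypt stem cells, fell from 20.5 to 13.1 CPM (LFC -0.65, adjusted p = 0.0013). Lgr4, the relative of Lgr5 that is expressed more widely in the crypt, fell from 181 to 126 CPM (LFC -0.54, adjusted p = 0.000252), and it also fell with ZnSO4 (LFC -0.27, adjusted p = 0.0313), where Lgr5 rose. The Wnt co-receptor gene Ryk fell as well (LFC -0.25, adjusted p = 0.0122).

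Secreted inhibitors of Wnt and their co-receptors (8 tested) gave 0 calls with Dex by edgeR, with 1 of the 8 at an unadjusted p under 0.05. With ZnSO4, averaged, 2 rose and 1 fell: the Dickkopf receptor gene Kremen1 (LFC 0.35, adjusted p = 0.00783), Dkk3 (0.32, 0.0131) and Kremen2 (-0.81, 0.00928). Kremen2 was low, with group means of 1.75 to 3.25 CPM. Of 14 cytoplasmic components, Dex lowered 2, Ctnnbip1, an inhibitor of β-catenin (LFC -0.32, adjusted p = 0.0179), and Dvl3, which relays the Frizzled signal (-0.23, 0.0363). ZnSO4 raised 1, Wls, which escorts Wnt out of the cell (0.28, 0.0372). Ctnnb1, Apc and Axin1 were among the 14 and were not called.

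Of 12 nuclear factors, 1 rose and 2 fell with Dex. The co-activator gene Bcl9 fell from 46.1 to 27.4 CPM (LFC -0.74, adjusted p = 6.71e-06). Tcf7l2, the main TCF factor of intestinal epithelium, fell from 34.6 to 24.4 CPM (LFC -0.50, adjusted p = 0.00169), and it fell with ZnSO4 too (LFC -0.35, adjusted p = 0.0241). The co-repressor gene Tle4 fell with ZnSO4 from a mean of 85.9 to 70.1 CPM (LFC -0.29, adjusted p = 0.00961). The co-repressor gene Tle1 rose with Dex (LFC 0.55, adjusted p = 0.000533).

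Of 10 further Wnt targets tested, 5 fell and 2 rose with Dex on average. Those that fell included the transcription factor gene Sp5 (LFC -0.90, adjusted p = 0.00157), the adhesion receptor gene Cd44 (-0.57, 0.00135), Myc (-0.57, 0.0025) and the cyclin gene Ccnd1 (-0.43, 0.00232). The fall of Ccnd1 was called on water (LFC -0.75, adjusted p = 0.00136) but not on ZnSO4 (-0.11, 0.585). Its interaction LFC of 0.64 had an unadjusted p of 0.00207 and did not pass (adjusted p = 0.952). Sp5 was low, with group means of 1.82 to 3.73 CPM. Ets2 (LFC 0.62, adjusted p = 0.000147) and the Wnt antagonist gene Nkd2 (0.76, 0.00675) rose. Ccnd1 was the target most affected by ZnSO4, at a mean of 137 CPM in water + PBS and 62.2 CPM in ZnSO4 + PBS (LFC -1.14, adjusted p = 0.000414). In Dex-injected mice its LFC with ZnSO4 was -0.50 (adjusted p = 0.0303).

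**Figure D4:**
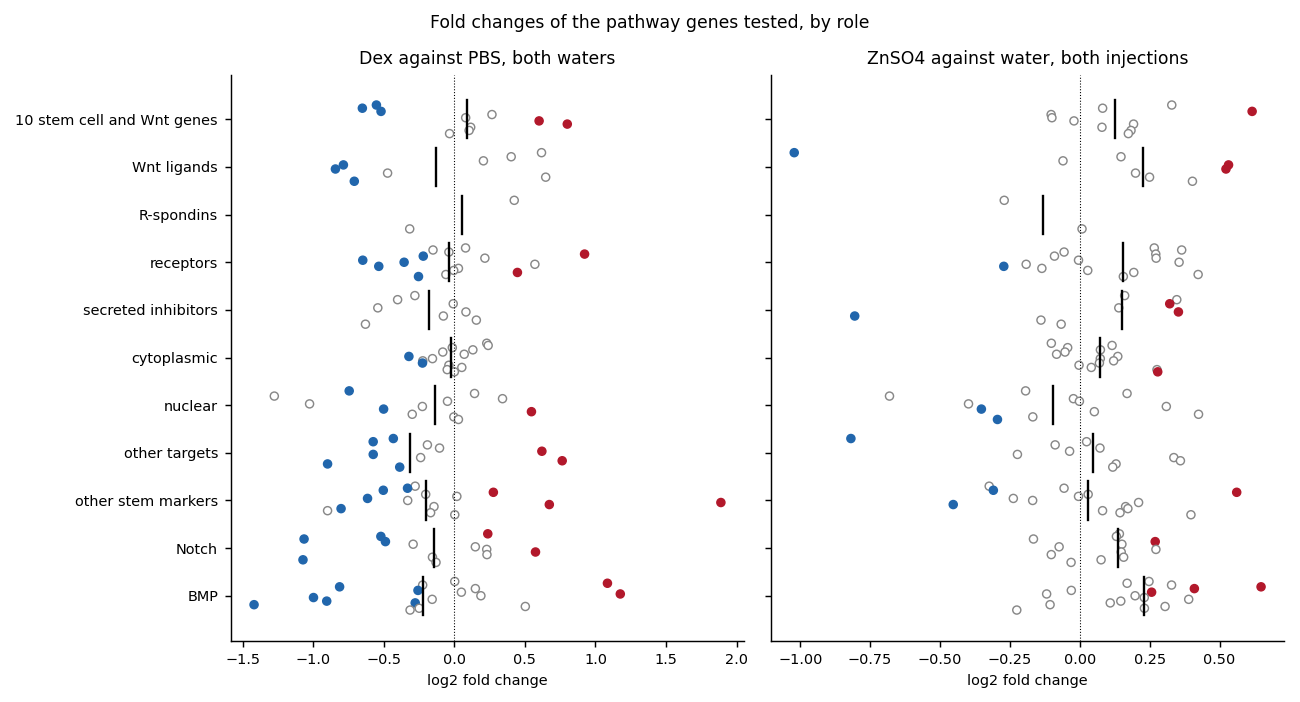
LFC (horizontal axis) of every tested gene, grouped by role, for Dex against PBS averaged over both kinds of water and for ZnSO4 against water averaged over both injections. Filled red and blue points rose or fell at an adjusted p under 0.05, open points did not pass, and the black lines are list medians. Of 113 genes of the Wnt, stem cell, Notch and BMP lists, 12 rose and 31 fell with Dex, and 10 rose and 8 fell with ZnSO4.

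Other genes used to mark stem or progenitor cells (15 tested) gave 3 rises and 4 falls with Dex. Msi1, an RNA-binding protein gene, had the largest change of any gene in the Wnt, stem cell, Notch and BMP lists. It went from a mean of 6.86 to 25.7 CPM (LFC 1.89, SE 0.13, adjusted p = 1.42e-06). Prom1, which encodes CD133, rose (LFC 0.67, adjusted p = 0.000653), as did Cdk6 (0.28, 0.021). The rise of Cdk6 with Dex was called on ZnSO4 (LFC 0.49, adjusted p = 0.00947) but not on water (0.07, 0.771). Its interaction LFC of 0.42 did not pass (adjusted p = 0.952). Cdca7 (LFC -0.50, adjusted p = 0.000513), the sodium channel subunit gene Scn2b (-0.80, 0.000575) and the Polycomb gene Bmi1 (-0.33, 0.000492) fell. With ZnSO4, averaged, Cdk6 rose (0.56, 0.000723), while Prom1 (-0.45, 0.0155) and Cdca7 (-0.31, 0.0205) fell. For Cdk6 the ZnSO4 call was made in Dex-injected mice (LFC 0.77, adjusted p = 0.00253) but not in PBS-injected mice (0.35, 0.0886).

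Notch signalling, which decides between absorptive and secretory fate above the stem cell zone, gave 2 rises and 4 falls with Dex among 12 genes. The ligand gene Dll4 fell from 24.2 to 11.5 CPM (LFC -1.06, adjusted p = 7.98e-06), and the targets Nrarp (-1.07, 0.000717) and Hes1 (-0.49, 0.000741) fell with it. The receptor gene Notch1 rose (LFC 0.58, adjusted p = 2.82e-05). With ZnSO4, averaged over injections, only Hes1 of the 12 changed (0.27, 0.0407). In Dex-injected mice alone ZnSO4 upregulated Notch1 (LFC 0.36, adjusted p = 0.0291), while Hes1 did not pass there (0.33, 0.12) or with PBS (0.21, 0.322).

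BMP signalling, which opposes stemness toward the villus, gave 2 rises and 6 falls with Dex among 17 genes. The BMP target genes Id3 (LFC -1.42, adjusted p = 9.8e-08) and Id1 (-0.90, 6.23e-05) fell, and so did Grem1, a stromal BMP antagonist (-0.998, 0.000443). The ligand gene Bmp3 rose from 62.2 to 131 CPM (LFC 1.08, adjusted p = 8.17e-06). ZnSO4 raised 3 of the 17 and lowered 0, Bmp5 (0.65, 0.0219), Bmp7 (0.41, 0.0132) and the receptor gene Bmpr2 (0.26, 0.0119).

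Outside these lists, the genes most like each of the 10 were found by Pearson correlation of log2 CPM over the 12 libraries among 11567 genes with a mean of at least 5 CPM. The values are descriptive, since all genes share libraries and groups. For Lgr5 they were Mfsd13a (r = 0.96), Cyp2s1 (0.94) and Id4 (0.94). For Axin2 they were Syde1 (0.96), Ski (0.96) and Zeb2 (0.96), for Rnf43 they included Dcun1d3 (0.96) and Gucy2c (0.95), and for Slc12a2 they were Rasef (0.98), Tmem252 (0.97) and Pcsk1 (0.97). Ascl2 was most like Slc23a2 (0.93), Smoc2 like Mlph (0.93), Lrig1 like Trap1 (0.94), Znrf3 like Vangl1 (0.90), Sox9 like Arhgap6 (0.87) and Olfm4 like Dnajc25 (0.87).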

How the data were processed

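Ileum RNA of 12 mice was sequenced single-end on stranded TruSeq libraries. Per the labels and the methods of the study, the authors trimmed reads with Trimmomatic, mapped them to mm10 with HISAT2 2.0.4, left out multimapped reads and summarised reads per gene with featureCounts. The deposited file holds the raw counts per Ensembl gene, with no normalization. The annotation release and the strand setting are not given in the sources used here. Symbols came from GENCODE for 54723 of 54838 identifiers. Groups were taken from the labels.

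Counts were filtered with filterByExpr (minimum count 10), scaled by TMM and fitted in edgeR 4.0.16 (R 4.3.3) with 4 group means over all 12 libraries and no covariates. 7 contrasts were tested by the quasi-likelihood test with Benjamini-Hochberg adjustment over 15938 genes; SE and 95% intervals come from that fit. The fit was tested on simulated data. CPM used TMM-scaled library sizes, and log2 CPM a prior count of 2. Library totals were 10760132 to 11827487 counts, so counting error was alike. The spread between mice was not: replicates differed by 8.23 to 13.5 times the sampling noise (chi-square per degree of freedom) in water + Dex and by 14.4 to 45.4 times in ZnSO4 + Dex. None was a repeated library.

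All 10 genes were named with their values. From the 10 pathway lists, genes were named that passed and were among the 4 of lowest adjusted p of their list in at least 1 of the 7 comparisons; Rspo1, Rspo3, Ctnnb1, Apc and Axin1 were named in addition, after their values were seen. One gene that the likeness rule named is not reported here. The genes, lists and covariates were chosen with earlier results of these data known. DESeq2 1.42.0, other scalings, filters, covariates, the replicate number as a block and leaving out each library were tried as alternatives.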

Additional observations from a re-analysis of the deposited data

How the results depend on the processing

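Lgr5 rose with ZnSO4 and Lgr5, Ascl2 and Axin2 fell and Rnf43 and Slc12a2 rose with Dex, on average, under every other scaling, filter, tool, covariate and left-out library, and these calls were lost only to the cut-off at an LFC of 0.8, which left 0 members for averaged ZnSO4 and 1 (Slc12a2) for averaged Dex. The same cut-off left 0 for ZnSO4 with PBS, 1 for Dex on water and 0 for Dex on ZnSO4. An unadjusted p under 0.05 gave 3 for ZnSO4 with Dex, 7 for Dex on ZnSO4 and 2 for averaged ZnSO4. The ZnSO4 call with PBS (Lgr5) became 0 with only the compared groups in the fit (fewer libraries, adjusted p = 0.0704), and with smooth muscle (0.0522) or proliferation markers (0.243) as a covariate, for which the cause was not tested. With 1 library left out the counts were 0 to 1 for ZnSO4 with PBS and 2 to 4 for Dex on water. The covariates for proliferation and enterocyte markers, and the fit without 3 libraries that stood apart in markers (water + PBS replicate 2, ZnSO4 + PBS replicate 2 and ZnSO4 + Dex replicate 2), were chosen after seeing the data.

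The replicate numbers recur in all groups. Deviations of libraries with the same number had a median correlation of -0.05 over 18 pairs (-0.38 to 0.48). For 36 pairs with different numbers the median was 0.02 (-0.49 to 0.46). No pairing by number was visible, though with 3 mice per group this comparison cannot exclude one. With the replicate number as a block, the members called were 1, 4, 0, 4, 1, 5 and 0 over the 7 comparisons, as without it. Counts over all genes moved as follows. For ZnSO4 with PBS, 742 genes became 405 with only the compared groups, 455 with the smooth muscle and 70 with the proliferation covariate, and 286 to 1013 with 1 library left out. For ZnSO4 with Dex, 696 became 309 with the smooth muscle and 458 with the enterocyte covariate, and 324 to 714 with 1 library left out. For Dex on water, 1582 became 937 to 1862 with 1 library left out. For Dex on ZnSO4, 2189 became 1383 with only the compared groups. For averaged ZnSO4, 2034 became 875 with the smooth muscle and 1226 with the proliferation covariate. The interaction gave 1 gene without the 3 libraries. The cause of these shifts was not tested. DESeq2 gave 506 higher and 535 lower genes for ZnSO4 with PBS, against 337 and 405 by edgeR.

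Signs turned only for LFC that had not passed, 70 values in all, each no larger than 0.20 in size. With proliferation markers as a covariate these were ZnSO4 with PBS for Ascl2 (-0.20), Smoc2 (0.063) and Lrig1 (0.065), Dex on water for Sox9 (0.0057), ZnSO4 with Dex for Rnf43 (-0.040) and Lrig1 (0.025), averaged ZnSO4 for Lrig1 (0.045) and the interaction for Lrig1 (-0.040). With smooth muscle markers they were ZnSO4 with PBS for Axin2 (-0.060), Rnf43 (0.0094) and Sox9 (-0.059), ZnSO4 with Dex for Axin2 (-0.023), and averaged ZnSO4 for Smoc2 (-0.096), Axin2 (-0.042) and Rnf43 (0.044). With enterocyte markers they were ZnSO4 with PBS for Sox9 (-0.031), Dex on water for Smoc2 (0.056) and Sox9 (0.046), averaged ZnSO4 for Smoc2 (-0.023) and Rnf43 (0.036), and the interaction for Axin2 (-0.0011). With B cell markers they were ZnSO4 with Dex for Rnf43 (-0.015) and Dex on ZnSO4 for Znrf3 (-0.042). Without the 3 libraries they were ZnSO4 with PBS for Znrf3 (-0.016) and Sox9 (-0.10) and Dex on water for Olfm4 (-0.054). The replicate block turned ZnSO4 with Dex for Rnf43 (-0.0051), and upper-quartile scaling turned ZnSO4 with Dex for Lrig1 (0.039) and averaged ZnSO4 for Rnf43 (0.012).

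With 1 library left out, ZnSO4 with PBS ran from -0.21 to 0.016 for Smoc2, -0.023 to 0.15 for Axin2, -0.13 to 0.050 for Rnf43, -0.046 to 0.27 for Znrf3 and -0.080 to 0.092 for Sox9. Dex on water ran from -0.074 to 0.16 for Olfm4, -0.13 to 0.050 for Smoc2 and -0.25 to 0.060 for Znrf3. ZnSO4 with Dex ran from -0.16 to 0.065 for Olfm4, -0.14 to 0.10 for Rnf43 and -0.13 to 0.050 for Lrig1. Averaged ZnSO4 for Rnf43 ran from -0.095 to 0.033 and averaged Dex for Znrf3 from -0.082 to 0.076. The interaction ran from -0.068 to 0.17 for Olfm4, -0.044 to 0.16 for Axin2, -0.093 to 0.15 for Rnf43 and -0.26 to 0.028 for Slc12a2. Depth limits Ascl2 most, at 29 to 68 reads a library.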
